A study of Mus musculus with 8 samples.

Results

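The CC chemokines are a family of small secreted proteins named after a pair of adjacent cysteines near their amino terminus. The 10 members described here, Ccl1, Ccl2, Ccl3, Ccl4, Ccl5, Ccl6, Ccl7, Ccl8, Ccl9 and Ccl22, were taken by gene symbol from a table of 18251 genes, and each was found in 1 row. RNA had been sequenced from subcutaneous tumours of MC38, a mouse colon cancer line, grown in male C57 mice aged 7 weeks. Every tumour carried TetOn-CXCL14, a construct that makes the chemokine CXCL14 when doxycycline (DOX) is given. The 4 control tumours were left untreated, and the 4 DOX tumours came from mice given DOX at 1 mg/mL in their drinking water over 3 days, each tumour from its own mouse. The labels give a tumour size of 300 mm³ at the start of DOX. They do not say whether the line is 1 clone. Tumours given DOX without the construct are not among the samples, so DOX and CXCL14 cannot be told apart as the source of a difference.

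CC chemokines leave the cells that make them, bind to matrix, and draw leukocytes that carry matching receptors along the resulting gradient. In tumours they are made by macrophages, T cells, NK cells, dendritic cells and stroma as well as by the cancer cells, and they are best known there for recruiting monocytes and T cells. One receptor usually binds several ligands, so the members are ordered below in groups with related roles. CCR8 binds CCL1 and, in the mouse, CCL8; CCR2 binds CCL2 and CCL7; CCL3, CCL4 and CCL5 are inflammatory chemokines of activated leukocytes; CCR1 binds CCL6 and CCL9, which are rodent chemokines of myeloid cells; and CCR4 binds CCL22.

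The cysteine pair that gives the family its name is shown in the coding sequences. Coding sequences came from GENCODE release M21 (GRCm38), 1 transcript per gene, and all 10 matched. The 48 bases shown run from 21 bases before the pair to 21 bases after it, on the coding strand, and capitals mark both cysteine codons.
Ccl1: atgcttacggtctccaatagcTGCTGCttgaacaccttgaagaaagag
Ccl8: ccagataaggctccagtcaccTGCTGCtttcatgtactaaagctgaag
Ccl2: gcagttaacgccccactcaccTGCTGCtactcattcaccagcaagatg
Ccl7: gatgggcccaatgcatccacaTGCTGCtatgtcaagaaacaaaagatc
Ccl3: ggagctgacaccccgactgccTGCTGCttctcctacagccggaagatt
Ccl4: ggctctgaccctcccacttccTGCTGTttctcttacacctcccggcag
Ccl5: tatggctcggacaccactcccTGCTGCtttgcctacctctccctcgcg
Ccl6: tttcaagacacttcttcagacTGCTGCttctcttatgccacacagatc
Ccl9: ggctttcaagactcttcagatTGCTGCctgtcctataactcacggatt
Ccl22: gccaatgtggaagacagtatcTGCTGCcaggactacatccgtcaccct

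Each coding sequence held 1 such pair, with its first cysteine at codon 32 to 36 in 8 members. In Ccl6 and Ccl9 it came later, at codons 50 and 57. The closest pairs over whole coding sequences were Ccl3 and Ccl4, with 67.0% identical alignment columns, Ccl6 and Ccl9 with 64.6%, and Ccl7 and Ccl8 with 63.3%, against a median of 48.2% over the 45 pairs. Ccl2, whose coding sequence has 447 bases where those of Ccl1, Ccl3, Ccl4 and Ccl22 have 279, aligned least well, with 38.3% to Ccl3.

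Most of the members are neighbours in the genome. In GRCm38.p6, the build named in the submitters' notes, Ccl2, Ccl7, Ccl8 and Ccl1 lie in this order within 144.2 kb of chromosome 11 (82035577 to 82179812). Ccl5, Ccl9, Ccl6, Ccl3 and Ccl4 lie within 138.9 kb of the same chromosome (83525778 to 83664683), 1346 kb further on. Ccl22 is alone on chromosome 8 (94745684 to 94751388). Annotated Ccl3 and Ccl4 overlap by 0.755 kb on opposite strands. Every value below sums a whole gene, with no split by exon.

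The annotation bears on the counts of Ccl3, Ccl4 and Ccl9. The deposited counts are estimates in which reads shared between genes are divided, and 7 of the 10 members had a whole count in 8 of 8 tumours. Ccl3 and Ccl4 had whole counts in 2 of 8. Their sum was whole in 8 of 8, so the fractions of one were completed by the other, and how reads are split between this pair is uncertain. Ccl9 had a whole count in 0 of 8 tumours, and its level holds shared reads of unknown share.

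The tumours held between 18685975 and 19307481 counts each, and all 10 members passed the filter on low counts, as did 13436 genes. Of 8 colon epithelial markers listed only Cdh1 was tested, at 19.8 CPM in control tumour 1 and 4.77 to 8.62 CPM in the others, while Epcam reached at most 0.366 CPM and Krt18 at most 0.107 CPM. Levels are given as CPM, counts divided by the scaled library size. Control tumour 1 stood apart from the other controls in myeloid markers. Its summed monocyte markers were 219 CPM, where the remaining controls had 46.0 to 60.5 CPM, and its summed macrophage markers were lowest, at 1896 CPM against 2186 to 2211 CPM. Single macrophage markers differed in this. Adgre1, Cd68, Mertk, C1qa, C1qb and C1qc were the lowest of the controls there, whereas Fcgr1 (88.9 CPM) and Mrc1 (76.4 CPM) were the highest. DOX tumour 1 was the DOX tumour nearest the controls, with 2534 CPM of macrophage markers against 2849 to 4453 CPM in the other DOX tumours.

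Set against controls, 9 of the 10 CC chemokines had a mean at least 1.44 times as high in DOX tumours, and Ccl2 alone stood at 1.06 times. The log2 fold change was positive in 10 of 10, beside 46.8% of all genes, with a median of 1.19, beside -0.01 over all 13436 genes tested. In edgeR's quasi-likelihood test 0 of the 10 passed an adjusted p of 0.05, beside 0.00744% of all genes; 7 of the 10 were higher at an unadjusted p below 0.05, beside 7.65% of all genes, and 0 were lower, beside 3.95%. DESeq2 called 3 members, Ccl1, Ccl6 and Ccl8, all higher, beside 0.422% of genes called higher and 0.566% called in either direction. The groups were apart, with the DOX tumours on the upper side, in 2 members, Ccl1 and Ccl8, beside 3.23% of all genes, and on the lower side in 0, beside 2.43%. The values in each tumour are shown in the plot of CPM by tumour.

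**Figure D1:**
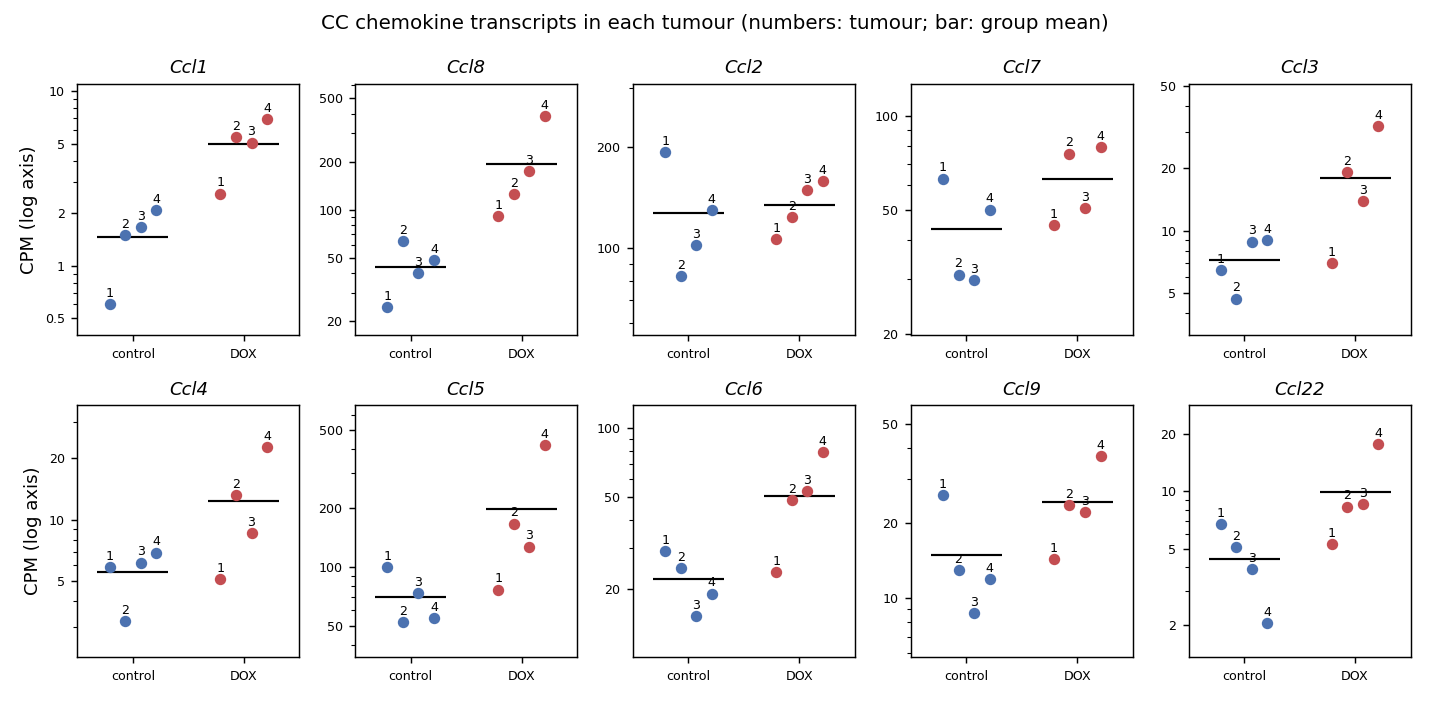
CPM (log axis, scaled per panel) of the 10 CC chemokines in 4 control (blue) and 4 DOX tumours (red); numbers give the tumour and bars the group mean. DOX tumour 4 is the highest and DOX tumour 1 the lowest of the DOX group in 10 of 10 panels, and the groups are apart in Ccl1 and Ccl8.

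The CCR8 ligands Ccl8 and Ccl1 had the highest log2 fold changes of the 10, although without control tumour 1 Ccl5 (1.71) came before Ccl1 (1.51). Ccl8, a chemokine that attracts monocytes and T cells, stood at 24.6, 63.3, 39.9 and 48.1 CPM in control tumours 1 to 4 and at 91.3, 125, 175 and 385 CPM in DOX tumours 1 to 4. The lowest DOX tumour was above the highest control, and DOX tumour 4 had more than the next DOX tumour by a wide margin. Means of 44.0 ± 16.2 and 194 ± 132 CPM (SD, n = 4 each) gave 2.14 ± 0.47 (SE) as the log2 fold change; the edgeR adjusted p was 0.387 and that of DESeq2 0.0240. Without DOX tumour 4 the log2 fold change was 1.57 ± 0.33 (SE).

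Ccl1, a T cell product, was the rarest member in controls on the CPM scale. Control tumours 1 to 4 had 0.601, 1.503, 1.66 and 2.09 CPM of it, or 11 to 39 counts. In DOX tumours 1 to 4 it was 2.59, 5.45, 5.07 and 6.89 CPM, or 50 to 129 counts. All DOX tumours lay above all controls, with DOX tumour 1 closest to them. The log2 fold change of 1.76 ± 0.38 (SE) had adjusted p-values of 0.387 (edgeR) and 0.0159 (DESeq2). Over the alternatives the adjusted p of Ccl1 ranged from 0.0159 to 0.796 and that of Ccl8 from 0.0240 to 0.796.

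The region before each gene is shown for Ccl8 and Ccl1, since these were the members whose groups did not overlap. The windows hold the 200 bases before the annotated start, from RefSeq (GRCm38.p6); 6 of the 10 members matched the table. The Ccl8 window is chr11:82114985-82115184 on the plus strand and the Ccl1 window chr11:82179813-82180012 on the minus strand, and capitals mark a TATAAA match.
Ccl8: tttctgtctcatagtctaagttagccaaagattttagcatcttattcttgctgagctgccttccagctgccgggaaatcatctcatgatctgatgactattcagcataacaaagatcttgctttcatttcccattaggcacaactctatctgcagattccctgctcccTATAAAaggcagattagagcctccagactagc
Ccl1: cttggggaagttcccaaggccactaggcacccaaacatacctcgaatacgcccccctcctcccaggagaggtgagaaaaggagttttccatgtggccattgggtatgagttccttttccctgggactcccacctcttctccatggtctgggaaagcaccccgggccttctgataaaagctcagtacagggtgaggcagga

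In Ccl8 the TATAAA match lay 32 to 27 bases before the start; this motif, read on the forward strand, was in 6.27% of 32851 windows. Both windows were searched on both strands for 4 more motifs, with N for any base. These were a form of the NF-κB site (GGG and TTTCC with 2 bases between), the interferon response element (GAAA repeated after 2 bases), the STAT site (TTC and GAA with NNN between) and the AP-1 site (TGANTCA), and none matched. Only these letters were searched, so a window without a match can still hold another form of a site. Among the other 4 windows, that of Ccl9 held a TATAAA, an AP-1 and an NF-κB match, none overlapping another. These motifs were in 6.27%, 5.48% and 1.18% of all windows.

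The CCR2 ligands Ccl2 and Ccl7 are neighbours of Ccl8 in the genome, and in both the groups overlapped. Ccl2, the main attractant of inflammatory monocytes, stood at 193, 82.7, 102 and 130 CPM in control tumours 1 to 4 and at 107, 124, 149 and 158 CPM in DOX tumours 1 to 4. The highest value of all was control tumour 1, and the groups overlapped. The log2 fold change was 0.08 ± 0.25 (SE, edgeR adjusted p = 0.920), and it was 0.36 ± 0.18 (SE) without control tumour 1. It was -0.07, -0.01 and -0.003 when control tumour 2, control tumour 3 or DOX tumour 4 was left out, so Ccl2 has no settled direction.

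Ccl7, which also attracts monocytes, was at 62.9, 30.9, 29.7 and 50.01 CPM in control tumours 1 to 4 and at 44.5, 75.5, 50.5 and 79.2 CPM in DOX tumours 1 to 4. Control tumour 1 lay above DOX tumours 1 and 3. For Ccl7 the log2 fold change was 0.53 ± 0.29 (SE, edgeR adjusted p = 0.501), or 0.76 ± 0.27 (SE) without control tumour 1.

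Ratios within a tumour compare such neighbours directly. The log2 ratio of Ccl8 to Ccl2 was -1.51 ± 1.05 in controls and 0.32 ± 0.66 in DOX tumours (SD, n = 4 each), a difference of 1.84. It was higher in every DOX tumour than in any control, with an exact two-sided permutation p of 0.0286, the smallest that 70 allocations allow, and 0.143 when adjusted over the 5 pairs compared. The ratio of Ccl8 to Ccl7 differed by 1.43 (exact permutation p = 0.0571), that of Ccl7 to Ccl2 by 0.41 (exact permutation p = 0.114), that of Ccl6 to Ccl9 by 0.40 (exact permutation p = 0.0857) and that of Ccl3 to Ccl4 by 0.17 (exact permutation p = 0.143). None of the 5 passed after adjustment (each adjusted exact p = 0.143), which 1 pair at the smallest p could not do by itself, and in these 4 the groups overlapped.

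Ccl3, Ccl4 and Ccl5 were higher than in any control in DOX tumours 2, 3 and 4 but not in DOX tumour 1. Ccl5, made by activated T cells and NK cells, was at 99.5, 51.9, 73.6 and 54.8 CPM in control tumours 1 to 4 and at 76.4, 166, 127 and 418 CPM in DOX tumours 1 to 4. DOX tumour 1 lay below control tumour 1, and DOX tumour 4 stood far above all others. For Ccl5 the log2 fold change was 1.49 ± 0.49 (SE, edgeR adjusted p = 0.387), and 0.82 ± 0.31 (SE) without DOX tumour 4.

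Ccl3 and Ccl4, made by activated macrophages and cytotoxic lymphocytes, followed each other closely. Ccl3 was at 6.45, 4.72, 8.87 and 9.06 CPM in control tumours 1 to 4 and at 6.99, 19.25, 13.9 and 32.003 CPM in DOX tumours 1 to 4. Ccl4 was at 5.90, 3.21, 6.18 and 6.91 CPM in control tumours 1 to 4 and at 5.12, 13.2, 8.62 and 22.6 CPM in DOX tumours 1 to 4. In both genes DOX tumour 1 lay within the control range and the other DOX tumours above it. The log2 fold change was 1.31 ± 0.43 (SE) in Ccl3 and 1.16 ± 0.44 (SE) in Ccl4; edgeR's adjusted p was 0.387 and 0.396. Without DOX tumour 4 they were 0.88 ± 0.36 and 0.70 ± 0.35 (SE).

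The CCR1 ligands Ccl6 and Ccl9 were on the higher side too. Ccl6 was at 29.3, 24.6, 15.2 and 19.1 CPM in control tumours 1 to 4 and at 23.7, 48.6, 53.1 and 78.6 CPM in DOX tumours 1 to 4, with DOX tumour 1 inside the control range. A log2 fold change of 1.21 ± 0.35 (SE) was found for Ccl6; adjusted p-values were 0.387 (edgeR) and 0.0267 (DESeq2). Ccl9 was at 25.9, 13.0, 8.72 and 12.0 CPM in control tumours 1 to 4 and at 14.3, 23.6, 22.04 and 37.0 CPM in DOX tumours 1 to 4. Control tumour 1 lay above 3 of the 4 DOX tumours. The log2 fold change of Ccl9 was 0.70 ± 0.38 (SE, edgeR adjusted p = 0.498), and 1.11 ± 0.31 (SE) without control tumour 1.

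Ccl22, a chemokine of dendritic cells and macrophages that attracts CCR4-bearing T cells, was at 6.72, 5.08, 3.89 and 2.04 CPM in control tumours 1 to 4 and at 5.28, 8.30, 8.56 and 17.6 CPM in DOX tumours 1 to 4. DOX tumour 1 lay inside the control range. For Ccl22 the log2 fold change was 1.16 ± 0.43 (SE, edgeR adjusted p = 0.394), or 0.74 ± 0.36 (SE) without DOX tumour 4. Ccl22 lies 223.4 kb before Adgrg1, the 1 gene past the threshold in this comparison.

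**Figure D2:**
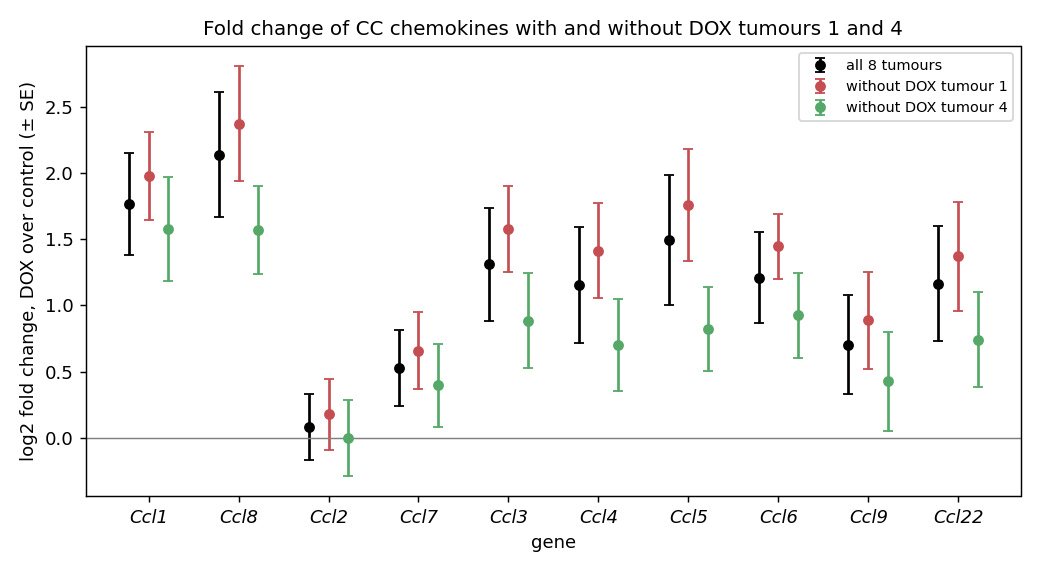
Log2 fold change of DOX over control tumours (edgeR, points, with ± SE as bars) for each CC chemokine, over all 8 tumours and without DOX tumour 1 or DOX tumour 4. Leaving out DOX tumour 4 lowers the value of all 10 members, to 1.57 in Ccl8 and 0.82 in Ccl5, and leaving out DOX tumour 1 raises it in all 10.

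The DOX tumours differed among themselves in the same order of extremes for every member. DOX tumour 4 was the highest of its group in 10 of 10 members and DOX tumour 1 the lowest in 10 of 10. The summed macrophage, T cell and NK cell markers had the same extremes, and the share of all genes with them was not counted. The controls had no such order: control tumour 1 was the highest of its group in 6 members (Ccl2, Ccl5, Ccl6, Ccl7, Ccl9 and Ccl22) and the lowest in 2 (Ccl1 and Ccl8). Cxcl14, the induced gene, stood at 9.34, 9.69, 8.30 and 9.59 CPM in control tumours 1 to 4 and at 30.1, 30.2, 20.3 and 15.8 CPM in DOX tumours 1 to 4, so the DOX tumour with the most of every member had the least Cxcl14. The median log2 fold change of the members was 0.78 without DOX tumour 4 and 1.43 without DOX tumour 1.

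**Figure D3:**
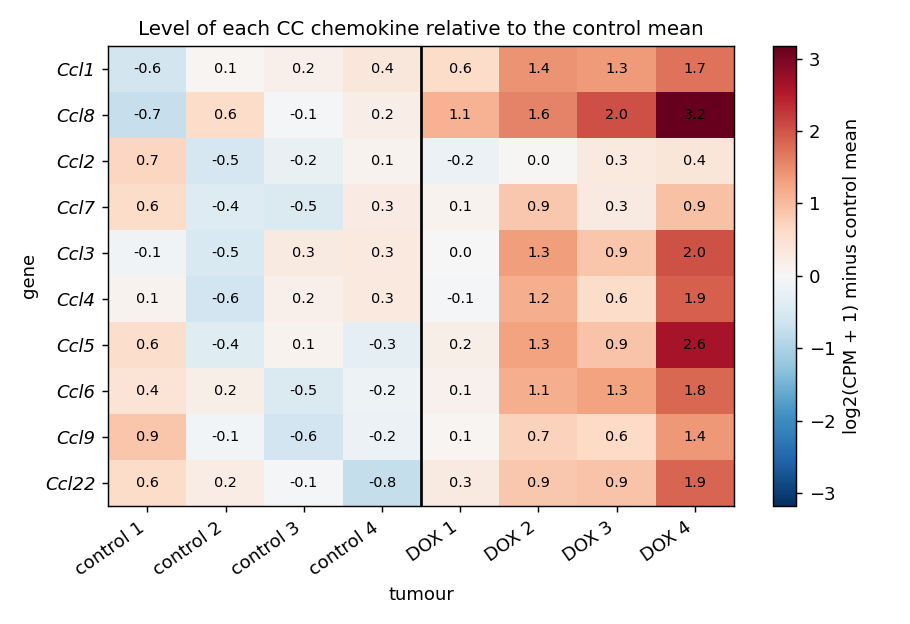
Level of each CC chemokine in each tumour as log2(CPM + 1) minus the mean of the controls; red is above and blue below that mean, and the line separates control from DOX tumours. The DOX tumour 4 column is the reddest, with 3.2 in Ccl8 and 2.6 in Ccl5, and Ccl2 stays within 0.4 of the control mean in all DOX tumours.

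Members were also compared with each other across the 8 tumours, as log2(CPM + 1). Pearson's r was positive in 45 of 45 pairs, with a median of 0.76, and 20 pairs passed an adjusted exact permutation p of 0.05 over the 45. With Spearman's rho 8 pairs passed, all of them among the 20. Both tests permuted all 8 tumours regardless of group, so a difference between groups shared by the members of a pair counts towards a pass. The share of other gene pairs that would pass was not counted, so these counts do not set the members apart from other genes. The deviations from the group means, which leave out the difference between groups, were positively correlated in 43 of 45 pairs, with a median of 0.58. DOX tumour 4 carried much of this: without it 1 of 45 pairs passed, and without control tumour 1 there were 37. Within the 4 DOX tumours alone r was positive in 45 of 45 pairs, whereas within the 4 control tumours it was negative in 20 and positive in 25; these signs rest on 4 tumours a group and were not tested.

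Ccl3 and Ccl4 were the closest pair, with r = 0.985 and rho = 0.976 (exact permutation p = 9.92e-05 and 0.000397, adjusted 0.00446 and 0.0179), and r = 0.935 without the 2 tumours farthest from the median; these 2 genes share reads. Ccl1 and Ccl8 had r = 0.944 and rho = 0.905 (exact permutation p = 0.000645 and 0.00456, adjusted 0.0118 and 0.0342), and r = 0.892 without the 2 farthest. Their groups do not overlap, and the deviations from group means had r = 0.80. Ccl6 and Ccl22, which lie on different chromosomes, had r = 0.911 and rho = 0.952 (exact permutation p = 0.00129 and 0.00114, adjusted 0.0118 and 0.0257), and r = 0.792 without the 2 farthest.

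Ccl2 had the lowest median r to the other 9, at 0.51; with deviations from the group means its median was 0.54, above those of Ccl1 (0.42), Ccl22 (0.46) and Ccl8 (0.52). Its r was 0.756 with Ccl7 (exact permutation p = 0.0312, adjusted 0.0574; rho = 0.786, exact permutation p = 0.0279, adjusted 0.0785) and 0.717 without the 2 farthest tumours, and 0.112 with Ccl8 (exact permutation p = 0.794; rho = 0.143), or 0.791 without the 2 farthest. These 2 were control tumours 1 and 2, which hold the highest and the lowest Ccl2. Without them the set is mostly DOX tumours, so its r does not show a relation in controls. For Ccl2 and Ccl8, r was -0.893 within the 4 controls and 0.914 within the 4 DOX tumours, and -0.086 for the deviations from group means.

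Outside the 10 members, the genes most like each member were found by Pearson's r over the 8 tumours among 10863 named genes with a mean log2 CPM above 2; values this high are the extremes of many comparisons and are given as a description. The nearest to Ccl4 was Aim2, an inflammasome sensor of myeloid cells (r = 0.997), and the nearest to Ccl5 was Cyba, a subunit of the phagocyte oxidase (r = 0.996). Ccl3 was nearest to Slamf7, a receptor of lymphocytes and macrophages (r = 0.993). Ccl8 was nearest to H2-M2, a nonclassical MHC class I gene (r = 0.990), and Nlrc4, an inflammasome gene, came after Nagpa (r = 0.982). The nearest to Ccl7 was Ccl12 (r = 0.984), another mouse CCR2 ligand encoded in the same block. Ccl9 was nearest to the Fc receptor gene Fcgr3 (r = 0.976). Ccl22 was nearest to Capzb, an actin capping subunit (r = 0.993), Ccl6 to Rhoh, a small GTPase of blood cells (r = 0.979), Ccl1 to Dhdh (r = 0.982) and Ccl2 to Agfg1 (r = 0.967).

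Levels of different members were compared per gene length, as deposited FPKM. In controls the order was Ccl2 with 167 ± 59.5, Ccl5 with 144 ± 42.5, Ccl8 with 95.5 ± 36.0 and Ccl7 with 57.3 ± 19.9 FPKM (SD, n = 4 each). Ccl6 followed at 15.8 ± 4.18, Ccl3 at 9.81 ± 2.86, Ccl4 at 8.78 ± 2.51, Ccl9 at 4.99 ± 2.42, Ccl1 at 3.22 ± 1.40 and Ccl22 at 2.50 ± 1.08 FPKM (SD, n = 4 each). Among neighbours in this order, only Ccl7 and Ccl6 had ranges that did not overlap.

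In DOX tumours the order of the first 3 was Ccl8 with 415 ± 271, Ccl5 with 403 ± 300 and Ccl2 with 177 ± 27.9 FPKM (SD, n = 4 each). Ccl8 and Ccl5 each led in 2 of the 4 DOX tumours, and Ccl5 lay above Ccl2 in 4 of 4 although their ranges overlapped. Ccl7 at 82.8 ± 22.1 FPKM was separate from both of its neighbours in the order, Ccl2 and Ccl6. Ccl1, at 10.9 ± 3.73 FPKM, changed places with Ccl9, at 8.14 ± 2.99 FPKM (SD, n = 4 each).

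Ccl2, Ccl5 and Ccl8 together made up 77.5% to 82.2% of the members' summed FPKM in controls and 78.9% to 87.2% in DOX tumours. Ccl2 alone had 39.2%, 25.1%, 29.7% and 34.2% of that sum in control tumours 1 to 4 and 23.4%, 16.6%, 19.7% and 9.57% in DOX tumours 1 to 4, without overlap. A share falls when other members rise. The FPKM of Ccl2 itself overlapped between the groups, at means of 167 in controls and 177 in DOX tumours. The share of Ccl8 was 8.19%, 31.5%, 19.0% and 20.7% in control tumours 1 to 4 and 32.7%, 27.5%, 37.9% and 38.1% in DOX tumours 1 to 4, where DOX tumour 2 lay below control tumour 2.

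**Figure D4:**
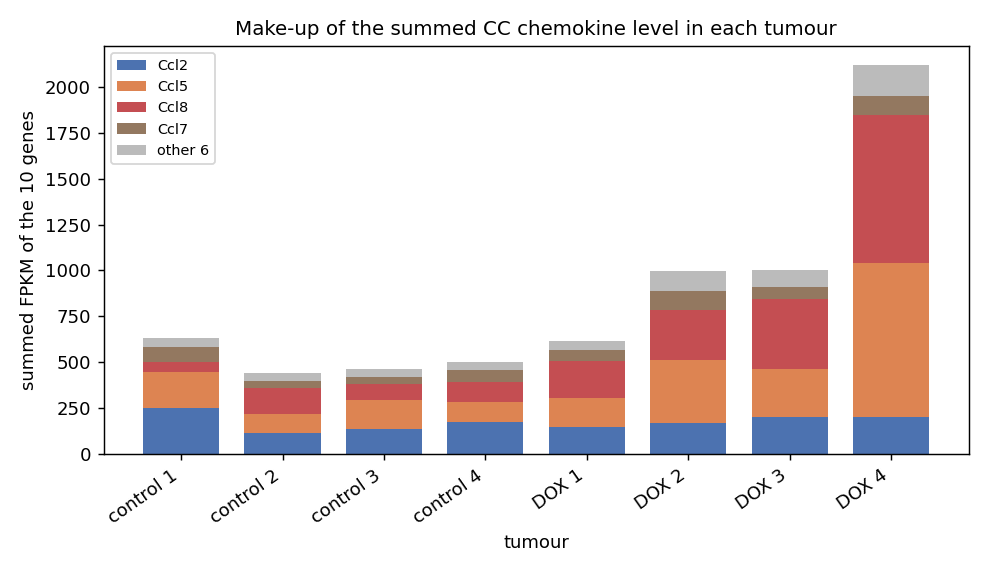
Summed FPKM of the 10 CC chemokines in each tumour (bars), split into Ccl2, Ccl5, Ccl8, Ccl7 and the other 6. The sum runs from 439 to 632 FPKM in controls and from 615 FPKM in DOX tumour 1 to 2119 FPKM in DOX tumour 4, and the Ccl2 part is largest in control tumour 1, at 248 FPKM.

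The remaining ligands and the receptors were counted from lists. Of 14 other CC chemokines 11 were in the table and 5 were tested; 4 of the 5 had a positive log2 fold change, with a median of 0.47. By edgeR 0 of the 5 passed and 0 fell below an unadjusted p of 0.05; by DESeq2 0 passed. The best expressed was Ccl12, whose mean was 26.7 ± 10.1 CPM in controls against 37.1 ± 8.41 CPM after DOX (SD, n = 4 each), a log2 fold change of 0.47 ± 0.27 (SE). In Ccl11, which draws eosinophils and stood below 1 CPM in each tumour, it was 0.98 ± 0.52 (SE). Ccl24, another eosinophil attractant, was not tested, and it was at 11.9 CPM in control tumour 1 and at most 0.363 CPM in every other tumour.

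Of 10 CC chemokine receptors 6 were tested, with a median log2 fold change of 0.27; 0 passed by edgeR or by DESeq2, and 2 fell below an unadjusted edgeR p of 0.05, both higher. These 2 were Ccr8, the receptor of CCL1 and mouse CCL8, and Ccr7, the receptor of dendritic cells and T cells that home to lymph nodes. Ccr8 stood at 0.219, 0.570, 0.623 and 0.375 CPM in control tumours 1 to 4 and at 0.828, 0.830, 1.25 and 1.98 CPM in DOX tumours 1 to 4. All DOX tumours lay above all controls, at few counts; the log2 fold change was 1.43 ± 0.41 (SE, edgeR adjusted p = 0.387).

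For Ccr1, the receptor of CCL6 and CCL9, the log2 fold change was 0.07 ± 0.40 (SE). Ccr2, the receptor of CCL2 and CCL7, had -0.17 ± 0.35 (SE). Control tumour 1 had 80.4 CPM of it, where the remaining controls had 24.3 to 33.5 CPM and the DOX tumours 31.8 to 44.3 CPM. Ccr4, the receptor of CCL22, was not tested, at no more than 0.641 CPM in any tumour. Of 5 atypical or scavenging receptors 2 were tested and 0 passed, with 0.73 ± 0.42 (SE) for Ccrl2.

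Markers of cells that can make these chemokines were read beside them. In whole tumours, more cells of a type and more RNA per cell cannot be told apart. The summed level of the 9 macrophage markers was 1896 to 2211 CPM in controls and 2534 to 4453 CPM in DOX tumours; 9 of 9 had a positive log2 fold change (median 0.60) and 7 an unadjusted edgeR p below 0.05. The 6 T cell markers in the table summed to 17.2 to 54.1 CPM in controls and 56.3 to 186 CPM in DOX tumours, with 6 of 6 positive (median 1.497) and 6 below that p. The 5 NK cell markers summed to 36.0 to 43.0 CPM and 53.1 to 136 CPM, with 3 of 5 below that p. After adjustment 0 markers of these 3 lists passed by edgeR. DESeq2 called 3 macrophage, 2 T cell and 2 NK cell markers, all higher, beside 0.422% of genes called higher. Of all genes tested by edgeR, 46.8% had a positive log2 fold change and 7.65% were higher at an unadjusted p below 0.05. In all 3 lists the sum was highest in DOX tumour 4 and lowest in DOX tumour 1 of that group. Single markers departed from this order. In DOX tumours 1 to 4, Ncr1 stood at 2.85, 3.27, 4.60 and 2.62 CPM and Klrb1c at 4.35, 2.91, 5.59 and 3.63 CPM. Mrc1 stood at 79.5, 62.5, 69.6 and 63.2 CPM there. The NK cell markers below that p were Klrd1, Nkg7 and Prf1. None of the markers of these lists was at 0 in all tumours.

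The monocyte markers, a list that includes Ccr2, did not follow this order. Their sum was 219 CPM in control tumour 1, while control tumours 2 to 4 had 46.0 to 60.5 CPM and DOX tumours 52.9 to 124 CPM, with 3 of 5 positive (median 0.16) and 0 below an unadjusted p of 0.05. Skeletal muscle markers summed to 1.37 to 47.8 CPM in controls and 16.3 to 174 CPM in DOX tumours; 7 of 7 were positive and 4 were below that p. Of the neutrophil markers 3 of 6 were tested, all positive, with sums of 34.9 to 42.3 CPM in controls and 40.6 to 92.4 CPM in DOX tumours. Dendritic cell markers summed to 416 to 471 CPM in controls and 455 to 495 CPM in DOX tumours, most of it Fscn1 (382 to 448 CPM); 6 of 6 tested were positive (median 0.49) and 2 were below that p. In the same order of groups, fibroblast markers summed to 1038 to 2506 CPM and 1379 to 1862 CPM, and B cell markers stayed at or below 1.75 CPM. By edgeR and by DESeq2, 0 markers of the lists in this paragraph passed after adjustment. The part of these cells in the chemokine values was not tested.

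Most of the summed macrophage markers was C1qa, C1qb and C1qc. They stood at 498, 403 and 381 CPM in control tumour 1 and at 1237, 1107.5 and 949 CPM in DOX tumour 4. Taken per 1000 CPM of this sum, Ccl8 was at 13.0, 29.0, 18.0 and 21.95 in control tumours 1 to 4 and at 36.0, 37.9, 61.4 and 86.4 in DOX tumours 1 to 4. Every DOX tumour was above the controls on this scale, DOX tumour 4 most. The same ratio of Ccl1 was 0.317 to 0.954 in controls and 1.02 to 1.78 in DOX tumours, without overlap. The share of all genes without overlap on this scale was not counted, and no ratio to T cell markers was taken. In the other 8 members the groups overlapped on this scale, and the means of Ccl9 (7.25 ± 4.37 in control and 7.20 ± 1.15 in DOX tumours) and Ccl7 (20.9 ± 9.23 and 19.0 ± 2.58; SD, n = 4 each) were close.

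**Figure D5:**
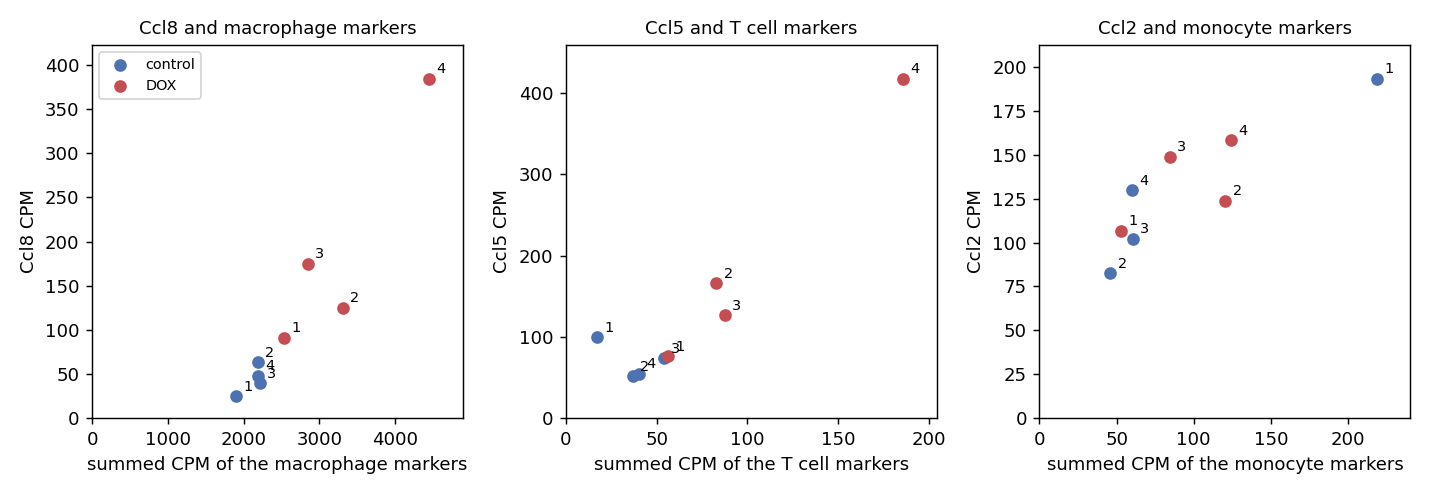
CPM of Ccl8, Ccl5 and Ccl2 against the summed CPM of macrophage, T cell and monocyte markers in the 4 control (blue) and 4 DOX tumours (red); numbers give the tumour. DOX tumour 4 is the highest point in the first 2 panels, with 385 CPM of Ccl8 and 418 CPM of Ccl5, and control tumour 1 in the third, with 193 CPM of Ccl2.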

How the data were processed

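The authors deposited a table of expected counts (64.9% of values are whole within 0.005) and a table of FPKM, scaled to gene length and library size per the file headers; HISAT, Bowtie2 and the build GRCm38.p6 appear in the submitters' processing notes. The sources used here name neither the counting tool nor its use of strand, and 8 columns of another table, which match no sample, were not used. Expected counts were rounded. edgeR 4.0.16 (R 4.3.3) kept 13436 genes by filterByExpr, with TMM scaling, a robust quasi-likelihood F test and Benjamini-Hochberg adjustment over all of them; an SE is the log2 fold change divided by the square root of F. DESeq2 1.42.0 and limma 3.58.1 on log2(FPKM + 1) served as alternatives, and the fits were tested on simulated data. Exact permutation tests and correlations used log2(CPM + 1). Replicate numbers come from the titles; same-numbered tumours did not deviate together (correlations -0.07, -0.06, 0.08 and 0.0009), so no pairing was assumed. P-values of the fits set the group difference against the spread between mice. Exact p-values come from permuting the tumours or reallocating them to the groups. The members, gene lists, paralog pairs and the rule for similar genes (the 3 highest r per member) were chosen with earlier results of these data known. The values of 1 receptor on the lists are not reported here.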

Additional observations from a re-analysis of the deposited data

Results flagged for a closer look

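Of 62 groups of 4 tumours checked, 5 held a value far from the other 3 by Dixon's criterion, and chance alone flags about 1 in 20 groups. Control tumour 1 accounts for 4 of them: Ccr2 at 80.4 CPM, with 24.3 to 33.5 CPM in control tumours 2 to 4, Ccl24 at 11.9 CPM against 0 to 0.363 CPM, the summed monocyte markers, which include Ccr2, at 219 CPM against 46.0 to 60.5 CPM, and the summed macrophage markers at 1896 CPM against 2186 to 2211 CPM. The other was Ccl11 in control tumour 2, at 0.778 CPM against 0.161 to 0.259 CPM, a difference of a few counts. The low macrophage sum of control tumour 1 does not hold for every marker in it, since Fcgr1 and Mrc1 were highest there among the controls. Ccl24 was the only gene in this check that had not passed the filter on low counts, and it was added by name. Its flag therefore cannot be set against the chance rate.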

How the results depend on the processing

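DESeq2 called 79 genes and 3 members, where edgeR called 1 and 0; the other alternatives, limma included, called 0 members, and edgeR called 2 genes without DOX tumour 4. Leaving out 1 tumour at a time gave 1 to 2 genes, 0 members and a median member log2 fold change of 0.78 to 1.43. Of 140 member values over 14 alternatives each, 134 kept their direction and side of the threshold. The 3 past it with DESeq2 were Ccl1 (1.76), Ccl6 (1.21) and Ccl8 (2.13). The 3 that reversed were all Ccl2, whose values without 1 tumour ran from -0.0731 (control tumour 2) to 0.357 (control tumour 1). The count of correlated member pairs, 20 of 45, was 1 without DOX tumour 4 and 37 without control tumour 1, 12 to 15 without 1 of the other tumours, and 14 and 18 with FPKM and with a pseudocount of 0.1. The cause was not tested. With the replicate number as a block the median member log2 fold change was 1.121 and 0 members passed; Ccl1 came closest (adjusted p = 0.0805). The paralog ratios kept their direction in all alternatives; with the block the smallest exact p is 0.125, so none could pass there. At 11 to 39 counts in controls, depth limits Ccl1 most.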
